A study of Mus musculus with 16 samples.

Results

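The genes described here encode 9 transcription factors of the myeloid lineage, Spi1, Cebpa, Cebpb, Cebpd, Cebpe, Irf8, Gfi1, Irf5 and Runx1. Members were found by gene symbol among the noncontrol probes of a mouse expression array, without regard to their signal, and all 9 were present, on 10 of 39429 probes (9 of 20659 gene symbols). Runx1 had 2 probes and every other gene had 1. The study measured CD11b+ cells, which carry the integrin subunit encoded by Itgam, from spleen or bone marrow of mice under 4 genotype labels: WT, STAT4 knockout, STAT6 knockout and HDC knockout. Each genotype was kept on a control diet or a high-fat diet (HFD), fed for 3 months as a model of atherosclerosis. Each of the 16 combinations of 4 genotypes, 2 tissues and 2 diets was measured once, on 1 array, from cells pooled from 5 mice labelled male. The sources used here state no strain, age or method of cell isolation, and leave unstated whether the same mice gave both tissues. STAT4 and STAT6 are cytokine-activated transcription factors, and HDC is the enzyme that makes histamine.

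PU.1, encoded by Spi1, opens myeloid enhancers and is required for both granulocytes and macrophages. C/EBP-alpha, encoded by Cebpa, drives the step from multipotent to granulocyte-monocyte progenitors, after which the branches part: C/EBP-epsilon and the repressor GFI1 carry neutrophil maturation, and IRF8 carries the monocyte and dendritic cell branch. IRF5 drives inflammatory cytokine genes in macrophages, C/EBP-beta and C/EBP-delta rise in emergency and inflammatory states, and RUNX1 acts in stem cells and early progenitors and binds with PU.1 at myeloid promoters.

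The promoters of Irf8 and Gfi1 are shown because these genes belong to opposing branches and differed between the tissues in opposite directions. RefSeq windows of 250 bases upstream of a transcript start (build GRCm38.p6) were at hand for 6 of the 9 genes. Short motifs were searched on both strands of each window: GAGGAA for PU.1, GAAANNGAA for IRF factors, TTGCNNAA for C/EBP, TGTGGT for RUNX, AAATCAC for GFI1, TTCNNNGAA for STAT factors in general, and TTC and GAA set 4 bases apart for STAT6. Capitals mark matches. The window at the start of Irf8 (chr8:120736108-120736357, plus strand) and that at the start of Gfi1 (chr5:107725806-107726055, minus strand) read, 5′ to 3′:
Irf8: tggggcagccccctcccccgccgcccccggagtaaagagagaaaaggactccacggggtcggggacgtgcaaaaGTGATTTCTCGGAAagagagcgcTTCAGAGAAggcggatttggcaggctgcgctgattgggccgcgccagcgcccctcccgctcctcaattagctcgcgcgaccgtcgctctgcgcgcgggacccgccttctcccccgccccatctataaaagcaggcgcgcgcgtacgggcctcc
Gfi1: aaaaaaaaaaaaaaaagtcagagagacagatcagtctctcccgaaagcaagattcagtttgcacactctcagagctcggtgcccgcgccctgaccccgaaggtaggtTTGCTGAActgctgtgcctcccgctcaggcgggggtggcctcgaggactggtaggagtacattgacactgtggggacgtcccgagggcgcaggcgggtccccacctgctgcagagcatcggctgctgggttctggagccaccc
The Irf8 window held the STAT motif at 2 places, TTCTCGGAA from -171 to -163 and TTCAGAGAA from -153 to -145 relative to the start. The GFI1 motif lay on the reverse strand (GTGATTT, -176 to -170) and overlapped the first of these. Among 32851 RefSeq mouse promoter windows of this length, 7.02% held the STAT motif and 2.75% the GFI1 motif at least once. The STAT6 motif, held by 5.85% of these windows, was not in the Irf8 window. The Gfi1 window held 1 C/EBP motif, TTGCTGAA from -143 to -136, a motif found in 9.56% of windows. The windows at hand for Cebpa, Cebpb and Irf5 held none of these motifs, and of the pair of windows for Runx1 1 held the PU.1 motif, present in 23.3% of all windows. These are letter matches and not measured binding sites.

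Levels are given as log2 of the background-subtracted Cy3 signal over the 75th percentile of the same array, so that 0 is the level of a fairly bright probe and 1 unit is a doubling. Signals of different probes are not compared. All 10 member probes were well above background on all 16 arrays and none was saturated. Over the arrays, 59.9% to 85.3% of all probes were well above background. The arrays lay on 4 slides, with WT and STAT4 knockout spleen, STAT6 and HDC knockout spleen, WT and STAT4 knockout marrow, and STAT6 and HDC knockout marrow each on 1 slide. Diet, STAT4 knockout against WT and HDC against STAT6 knockout are therefore comparisons within slides. Slide cannot be told apart from STAT6 or HDC knockout against WT, and every spleen against marrow comparison is also between slides.

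The labels were checked first. Itgam, by the brightest of its 3 probes, lay at 3.13 to 6.05 in spleen and 4.74 to 6.06 in marrow, while its dimmest probe lay at -2.91 to -0.17 over the 16 arrays. Hdc was lower on the 4 HDC knockout arrays (mean 1.50, SD 0.39, n = 4) than on the 11 others whose spot could be used (5.11, SD 0.62, n = 11; exact two-sided permutation test, p = 0.00147). Stat6, by its brightest probe, was 2.77 (SD 0.21, n = 4) on the STAT6 knockout arrays and 3.46 (SD 0.60, n = 12) elsewhere (exact p = 0.0473). The knockout values, 2.54 to 3.04, lay within the range of the others, 2.34 to 4.14. At its dimmer probes Stat6 was -4.48 against -3.19 elsewhere (exact p = 0.0022) and -2.01 against -1.29 (exact p = 0.103). Stat4 was not reduced on the arrays labelled STAT4 knockout. On the high-fat diet its level was 3.51 (spleen) and 2.74 (marrow), above every other array, and 0.56 and 0.41 on the control diet, within the range of the other 12 (-0.89 to 1.33; exact p = 0.0451 for all 4 against 12). All 4 are called the arrays labelled STAT4 knockout throughout. How a probe lies relative to the deleted part of its gene is unstated. On 4 arrays the label male was not borne out: the control-diet spleen and marrow arrays of the mice labelled STAT4 knockout and HDC knockout had a mean level of Ddx3y, Eif2s3y and Uty, which lie on the Y chromosome, of -8.39 to -5.57, against -0.61 to 0.35 on the other 12. Xist, expressed from the inactive X chromosome, lay at -4.20 to -2.93 there, against -9.26 to -5.44 elsewhere.

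**Figure D1:**
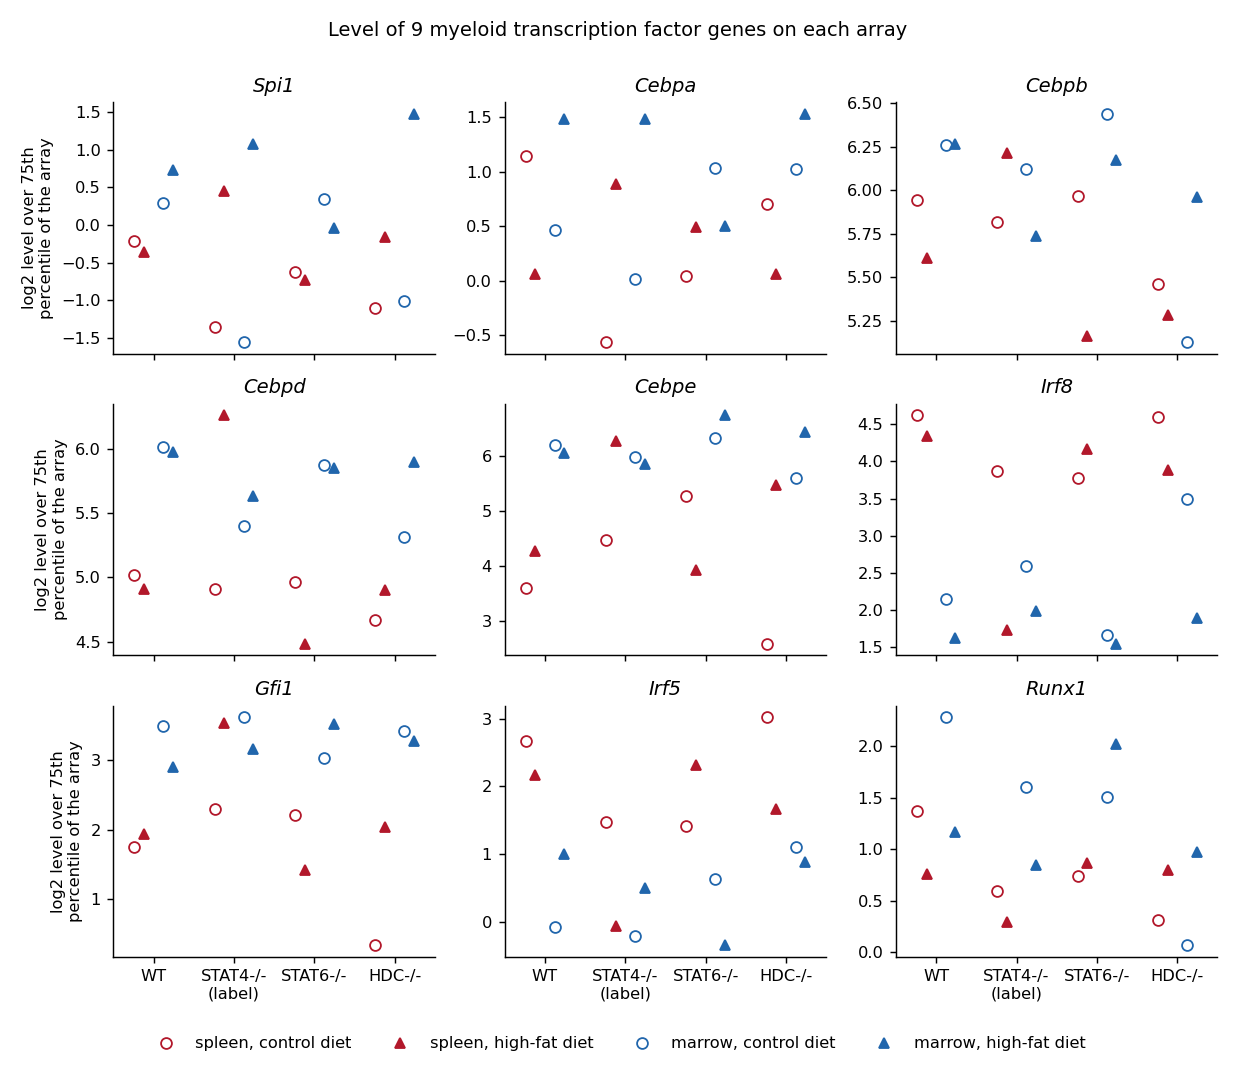
Level of the 9 genes on each of 16 arrays (vertical axes: log2 level over the 75th percentile of the array, with a scale of its own in each panel; horizontal axes: genotype label; red, spleen; blue, marrow; open circles, control diet; filled triangles, high-fat diet; 1 point is 1 pool of 5 mice). Irf8 and Irf5 were high on 7 of 8 spleen arrays and Cebpe, Gfi1 and Cebpd low, while the high-fat spleen array labelled STAT4 knockout lay among the marrow arrays or beyond them.

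Spleen and marrow CD11b+ cells differed in 5 of the 9 genes. Irf8 and Irf5 were higher in spleen, by 3.37-fold and 2.65-fold, and Cebpe, Gfi1 and Cebpd were lower, by 3.15-fold, 2.57-fold and 1.66-fold. Spi1, Cebpa, Cebpb and Runx1 did not pass the test. The test was limma across 28783 features fitted to all 16 arrays with 8 genotype and tissue means and 1 diet term per tissue, and calls were made at an adjusted p under 0.05. Of the 9 genes, 5 were called, 2 higher and 3 lower in spleen. Over all features 32% were called, 14.9% higher and 17.1% lower, so that a call on its own sets no gene apart in this comparison. The p-values rest on how the diet difference varies among genotypes within a tissue, each combination being a single pool. In bulk samples, fewer cells of a type and less RNA per cell cannot be told apart.

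Irf8, a factor of monocytes and dendritic cells, was 1.73 on its lowest spleen array, 4.03 at the median and 4.62 on the highest. In marrow it was 1.55 at the lowest, 1.94 at the median and 3.49 at the highest. On 7 of 8 spleen arrays it exceeded every marrow array, and the exception was the high-fat spleen array labelled STAT4 knockout, the lowest in spleen. The highest marrow value was that of the control-diet HDC knockout array. The difference was 1.75 on the log2 scale (SE 0.28, adjusted p = 0.00208), with spleen higher in 7 of 8 pairs of the same genotype and diet.

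Irf5, the inducer of inflammatory cytokines, ran from -0.07 through a median of 1.92 to 3.03 in spleen. In marrow it ran from -0.35 through 0.56 to 1.103. Again 7 of 8 spleen arrays were above every marrow array, and the same spleen array was the exception. The difference was 1.40 (SE 0.31, adjusted p = 0.00895), with spleen higher in 7 of 8 pairs.

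Cebpe, needed for the secondary granules of neutrophils, was low and spread out in spleen (lowest 2.59, median 4.37, highest 6.26). In marrow its 8 values were close together (5.60, 6.12 and 6.73). On 7 of 8 spleen arrays it was below every marrow array, with the lowest value on the control-diet HDC knockout array and the highest on the high-fat array labelled STAT4 knockout. The difference was -1.65 (SE 0.39, adjusted p = 0.0107).

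Gfi1, which represses monocytic genes in neutrophil precursors, followed the same order of arrays at both ends. Its spleen values ran from 0.34 through 1.99 to 3.53, and its marrow values from 2.90 through 3.35 to 3.62. The spleen minus marrow difference was -1.36 (SE 0.27, adjusted p = 0.00586), with 7 of 8 spleen arrays below every marrow array.

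Cebpd, an acute-phase C/EBP factor, was 4.48, 4.91 and 6.26 at the lowest, the median and the highest spleen array, against 5.31, 5.86 and 6.01 in marrow. As for Cebpe, 7 of 8 spleen arrays were below every marrow array, and the high-fat spleen array labelled STAT4 knockout was above them all. The difference was -0.73 (SE 0.22, adjusted p = 0.0293). This call was the least firm of the 5: leaving out 1 array at a time lost it for 11 of the 16 arrays, with changes of -0.77 to -0.55 and adjusted p from 0.0511 to 0.0834. It held without the control-diet spleen array of WT or of STAT6 knockout mice, the high-fat spleen array labelled STAT4 knockout, the high-fat STAT6 knockout marrow array or the control-diet HDC knockout marrow array.

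The remaining 4 genes had overlapping values in the tissues. Spi1 differed by -0.67 (SE 0.37, adjusted p = 0.192), with spleen values from -1.36 to 0.46 and marrow values from -1.56 to 1.48. Spleen was lower in 7 of 8 pairs. For Cebpa the difference was -0.59 (SE 0.31, adjusted p = 0.175), from -0.56 to 1.15 in spleen and 0.01 to 1.53 in marrow. Cebpb, a partner of C/EBP-delta in emergency granulopoiesis, differed by -0.33 (SE 0.20, 95% interval -0.78 to 0.13, adjusted p = 0.245). Its values were 5.16 to 6.21 in spleen and 5.13 to 6.44 in marrow, the narrowest range over all arrays of the 9 genes. Runx1 differed by -0.59 (SE 0.26, adjusted p = 0.102) at its brighter probe, with 0.29 to 1.37 in spleen and 0.06 to 2.29 in marrow, and by -0.32 (SE 0.21, adjusted p = 0.277) at its dimmer probe. With the spleen and marrow arrays of a genotype and diet taken as pairs, a fit chosen after seeing the data, Spi1 (SE 0.21, adjusted p = 0.0336) and Runx1 (SE 0.18, adjusted p = 0.0333) were called as well, with the same differences. The 5 genes above remained called, 7 in all, beside 32.7% of all features. The labels do not say whether the mice of a pair are the same.

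**Figure D2:**
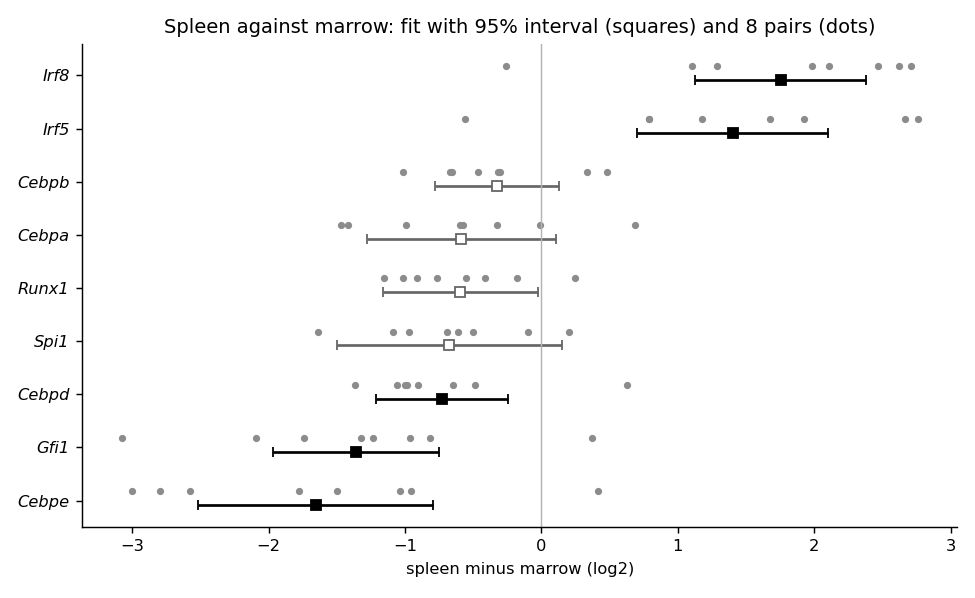
Spleen minus marrow difference of each gene on the log2 scale (horizontal axis), with the limma estimate and its 95% interval as squares and bars (filled, adjusted p under 0.05) and the 8 pairs of arrays of the same genotype and diet as grey dots. The pair labelled STAT4 knockout on the high-fat diet gives the one dot of opposite sign in each of the 5 filled rows.

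In none of the 9 genes did all spleen arrays separate from all marrow arrays. Such a separation was seen in 2.56% of all features, and 18.1% of features had the same sign in all 8 pairs. Without the high-fat spleen array labelled STAT4 knockout and the control-diet HDC knockout marrow array, the same 5 genes and Cebpb were called. These arrays were left out because they lie nearer to the other tissue, so that larger differences follow from the choice and say nothing of stability. Irf8 then differed by 2.14 (SE 0.21) and Cebpb by -0.56 (SE 0.19, adjusted p = 0.0450), with 39% of features called. Without the 4 arrays that lack Y-linked signal, Irf8 alone was called (1.58, SE 0.26, adjusted p = 0.0148), with 13.3% of features called. In that fit of 12 arrays Irf5 differed by 0.94 (adjusted p = 0.181), Cebpe by -1.04 (adjusted p = 0.117), Gfi1 by -0.86 (adjusted p = 0.118) and Cebpd by -0.57 (adjusted p = 0.159), with the signs as before.

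Markers of other cells moved with the same contrast, in which 14.9% of all features were higher in spleen and 17.1% lower. All 8 of 8 mature B cell markers were higher in spleen, as were 7 of 7 natural killer cell markers, 7 of 8 conventional dendritic cell markers and 8 of 10 red pulp macrophage markers. Lower in spleen were 4 of 7 neutrophil markers, 5 of 9 pro-B and pre-B cell markers, with 2 higher, and 2 of 4 classical monocyte markers, Fn1 (-1.30) and F13a1 (-1.08), with none higher. The mean log2 level of the B cell markers was 1.36 to 2.50 on 7 spleen arrays and -0.72 on the high-fat spleen array labelled STAT4 knockout, against -2.58 to -0.14 in marrow, where the highest was the control-diet HDC knockout array. Natural killer cell markers ran from -3.93, on that same STAT4-labelled array, to 1.31 in spleen and from -4.52 to -1.38 in marrow. No B cell or natural killer cell marker was at 0: in each list all but 1 gene were well above background on all 16 arrays, the others being Pax5 on 15 and Klrk1 on 14. Of 11 cell cycle genes, 8 were lower in spleen, with mean levels of 0.61 to 2.55 against 2.55 to 3.00. The 7 spleen arrays high in B cell markers were thus those high in Irf8 and Irf5. Within marrow, the control-diet HDC knockout array was highest in each. Irf5 did not follow throughout marrow: it was 0.88 on the high-fat HDC knockout array, where B cell markers were lowest (-2.58). The part of other cells in the differences of the members was not tested.

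Neutrophil granule genes were lower in spleen or did not pass the test, and none was higher. Of 6 primary granule genes, 5 were lower and Prtn3 was not called (-1.59, adjusted p = 0.0626), against 17.1% of all features lower, with a list median of -1.77 against -0.06 over all features: Ms4a3 (-1.95), Ctsg, the protease cathepsin G (-1.90), and Mpo, myeloperoxidase (-1.85), led. Of 8 secondary granule genes, which C/EBP-epsilon activates, 4 were lower (median -0.82), including Itgb2l (-2.16), Cd177 (-1.59), the collagenase gene Mmp8 (-1.56) and Ltf, lactoferrin (-0.93). Chil3 (-0.71, adjusted p = 0.0502), Camp (-0.48, 0.0909), Lcn2 (-0.61, 0.181) and Ngp (-0.23, 0.478) were not called. The mean level of the primary granule genes was lowest, at -0.16, on the control-diet HDC knockout spleen array and highest, at 5.12, on the high-fat spleen array labelled STAT4 knockout. These are the arrays where Cebpe and Gfi1 were lowest and, among spleen arrays, highest. Of 17 receptor and effector genes that PU.1 and C/EBP factors activate, 7 were lower and none higher (median -0.58), including Itgam (-1.30).

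The relatives of the members did not move as families. Among 7 other IRF genes, Irf4, which acts in lymphocytes and dendritic cells, was higher in spleen (2.80, SE 0.54, adjusted p = 0.00494) and the other 6 were not called. Among 10 other ETS genes, Spic, the red pulp macrophage factor (3.93), and Spib, which acts in B cells and plasmacytoid dendritic cells (1.86), were higher, and Erg (-1.64), Gabpa (-0.77) and Fli1 (-0.61) lower. Of 5 C/EBP relatives and other bZIP factors Batf was higher (0.77) and Nfil3 lower (-0.89), of 4 RUNX relatives and partners Runx3, a lymphocyte factor, was higher (1.07), and of 6 GFI1 relatives and corepressors Rcor1 was lower (-0.57). Of 24 other myeloid and progenitor factors 5 were higher, among them Myc (2.63), Maf, a macrophage factor (2.46), and Nab2 (2.08), and 2 were lower, led by the progenitor factor Myb (-1.73). Of 12 lymphoid factors 9 were higher, with a list median of 2.39, led by Bcl11b (4.98) and Gata3 (4.14). Inflammatory genes that IRF5 activates showed no common direction: of 7 tested, Il23a was higher (1.27) and Il12a lower (-0.97). Over all 11 of these lists, 20 of 106 genes (18.9%) were higher and 24 (22.6%) lower, against 14.9% and 17.1% of all features. This total joins lists that moved in opposed directions, and its distance from all features was not tested.

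Within spleen, over the 8 arrays, 5 relations passed by r, 4 of them among the 6 between Irf8, Irf5, Cebpe and Gfi1. How common such r is among all features on these arrays is not given, so the count sets no gene apart. Irf8 and Irf5 rose and fell together (r = 0.952, rho = 0.952; exact permutation test, p = 0.000372 for r and 0.00114 for rho, adjusted 0.0268 and 0.0402 over 72 relations, 36 in each tissue). Irf5 ran opposite to Cebpe (r = -0.923, rho = -0.929; exact p = 0.00124 and 0.00223, adjusted 0.0298 and 0.0402) and to Gfi1 (r = -0.933, rho = -0.952; exact p = 0.000918 and 0.00114, adjusted 0.0298 and 0.0402). Cebpe and Gfi1 went together (r = 0.908, rho = 0.881; exact p = 0.00310 and 0.00724, adjusted 0.0496 and 0.0745), as did Cebpb and Cebpd (r = 0.765, rho = 0.929; exact p = 0.00345 and 0.00223, adjusted 0.0496 and 0.0402). Irf8 did not pass with Cebpe (r = -0.818, rho = -0.881; exact p = 0.00456 and 0.00724, adjusted 0.0548 and 0.0745) or with Gfi1 (r = -0.842, rho = -0.857; exact p = 0.00875 and 0.0107, adjusted 0.0901 and 0.0964). Without the 2 arrays farthest from the median of the first gene of each pair, r was 0.962 for Irf8 with Irf5, -0.837 for Cebpe with Irf5, -0.818 for Gfi1 with Irf5, 0.643 for Cebpe with Gfi1 and 0.616 for Cebpb with Cebpd. No pair passed in marrow, where Irf8 and Irf5 had r = 0.225 (exact p = 0.640) and Cebpe and Gfi1 r = 0.0705 (exact p = 0.867). Whether the relations differ between the tissues was not tested. A slide holds 4 arrays of a tissue, too few for a value within slides, and the marker levels above vary along the same spleen arrays.

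**Figure D3:**
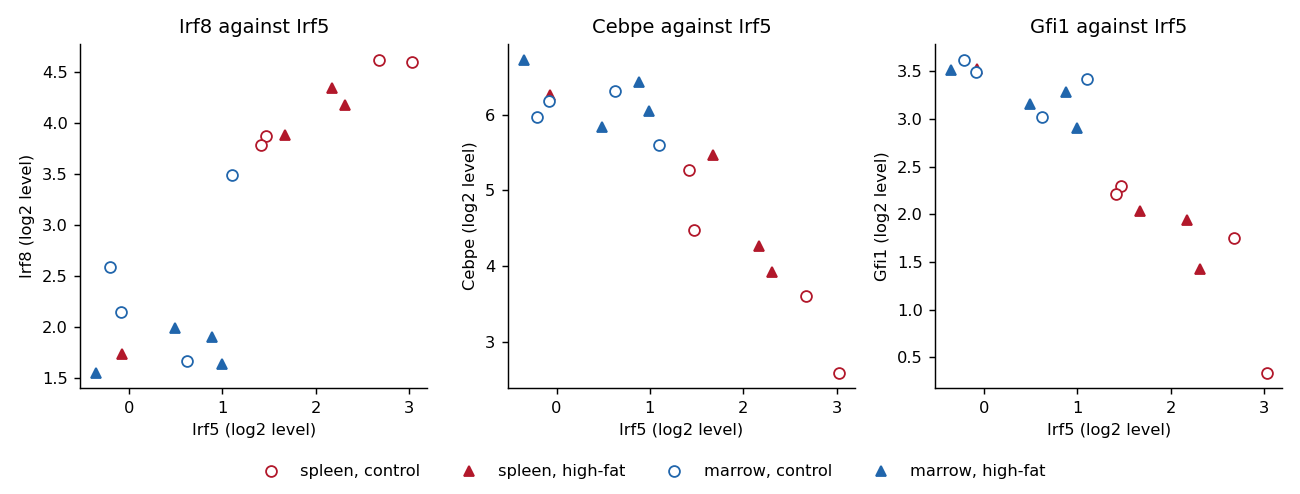
Irf8, Cebpe and Gfi1 (vertical axes) against Irf5 (horizontal axes), all as log2 levels over the 75th percentile, on the 16 arrays (red, spleen; blue, marrow; open circles, control diet; filled triangles, high-fat diet). Spleen arrays spread along the line from the control-diet HDC knockout array, with Irf5 at 3.03, to the high-fat array labelled STAT4 knockout, with Irf5 at -0.07, which falls in the range of the marrow arrays.

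For diet, no member was called in spleen, in marrow, over both tissues or in the difference between tissues, and neither was any other feature (0% in each limma test). At an unadjusted p under 0.05 there were 1302, 1737, 3633 and 320 features in these tests, of 28783. Among the members only Spi1 and Irf8 reached that level. Irf8 was lower on the high-fat diet in 7 of 8 pairs, by 0.27 to 2.15 in 3 of the spleen pairs and by 0.12 to 1.59 in all 4 marrow pairs. The mean difference was -0.69 (SE 0.28, unadjusted p = 0.0326, adjusted p = 0.387). Without the 4 arrays lacking Y-linked signal it was -0.13 (SE 0.26).

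In spleen Cebpe, Gfi1, Irf8 and Irf5 each had diet differences of one sign in 3 genotypes and of the other sign in STAT6 knockout mice. Of those 3, the mice labelled STAT4 knockout and HDC knockout had Y-linked signal only on the high-fat array. Sex and diet cannot be told apart in them. Cebpe was higher on the high-fat diet by 0.66 in WT mice, 1.79 in those labelled STAT4 knockout and 2.88 in HDC knockout mice, but was 1.34 lower in STAT6 knockout mice. Irf5 ran the other way, lower by 0.50, 1.54 and 1.36 in the first 3 and 0.90 higher in STAT6 knockout mice. Gfi1 shared the signs of Cebpe, and Irf8 those of Irf5. The fitted means over the 4 genotypes were 0.99 for Cebpe (SE 0.55, adjusted p = 0.771) and -0.63 for Irf5 (SE 0.44, adjusted p = 0.771). Over both tissues the difference was 0.62 for Cebpe, 0.33 for Cebpa, 0.22 for Cebpd, 0.21 for Gfi1, -0.09 for Cebpb, -0.09 for Runx1 and -0.24 for Irf5, with adjusted p of 0.423 or more. Without the 4 arrays lacking Y-linked signal, that difference was -0.10 for Cebpe, -0.17 for Gfi1, 0.12 for Irf5 and -0.13 for Irf8. The diet change of STAT6 knockout mice minus that of WT, over both tissues, was -0.72 for Cebpe (SE 0.91, adjusted p = 0.977). This mean includes marrow, where Cebpe changed by 0.42 in STAT6 knockout and -0.14 in WT mice. The difference between genotypes in spleen alone was not tested.

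Over both tissues Spi1 had the largest diet difference among the members, and it came from particular genotypes. In WT mice it was -0.21 on the control diet and -0.36 on the high-fat diet in spleen, and 0.30 and 0.73 in marrow. In STAT6 knockout mice it was -0.62 and -0.73 in spleen, and 0.34 and -0.04 in marrow. In mice labelled STAT4 knockout it was -1.36 and 0.46 in spleen, and -1.56 and 1.07 in marrow. HDC knockout mice had -1.11 and -0.15 in spleen and -1.01 and 1.48 in marrow. High-fat arrays thus exceeded control arrays by 0.95 to 2.63 in the mice labelled STAT4 knockout and HDC knockout, while differences in WT and STAT6 knockout mice lay between -0.38 and 0.43. Over both tissues the difference was 0.96 (SE 0.37, unadjusted p = 0.0270, adjusted p = 0.387), and in marrow 1.29 (SE 0.53, adjusted p = 0.697).

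**Figure D4:**
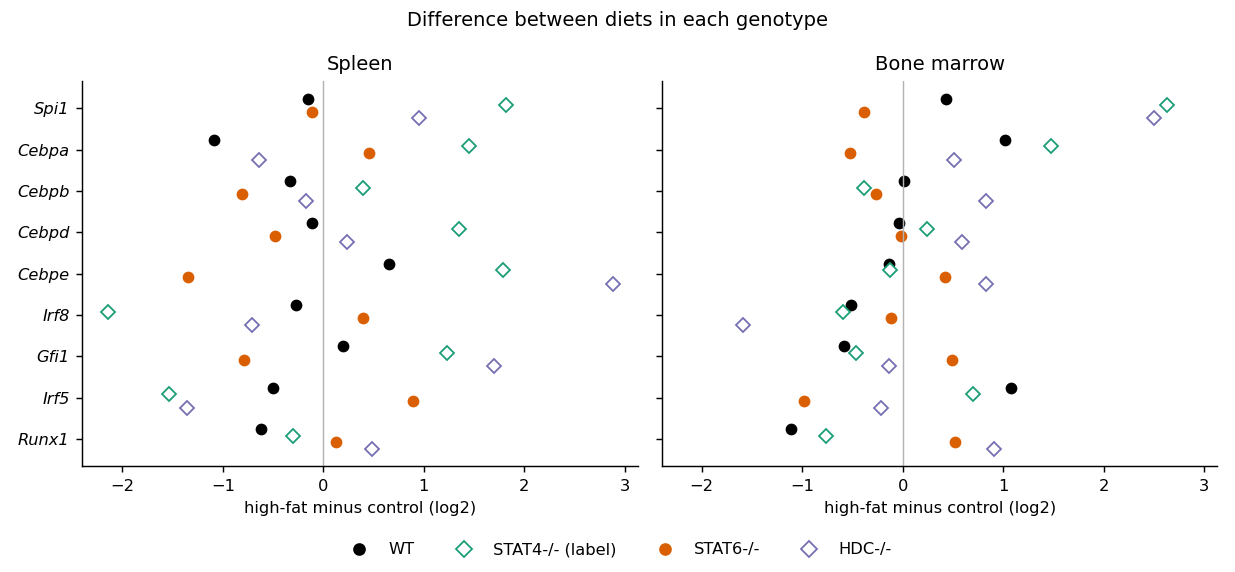
High-fat minus control difference of each gene (log2, horizontal axes) in each genotype, in spleen and in marrow (filled circles, WT and STAT6 knockout; open diamonds, mice labelled STAT4 knockout and HDC knockout). For Spi1 the 4 open diamonds lie at 0.95 to 2.63 and the 4 filled circles at -0.38 to 0.43.

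The 4 lowest Spi1 values of the 16 were those of the 4 arrays without Y-linked signal, which are the control-diet arrays of the mice labelled STAT4 knockout and HDC knockout. They lay at -1.56 to -1.01 (mean -1.26) and the other 12 arrays at -0.73 to 1.48 (mean 0.19, SD 0.67). Of all features, 0.65% had these 4 arrays below all others and 0.306% had them above all others. None of the other 8 members separated these arrays from the rest. Without them the diet difference of Spi1 was -0.05 over both tissues (SE 0.26), and the sex of the mice and the diet cannot be told apart within these genotypes. In a model with all pairwise terms, chosen after seeing the data, the diet change of Spi1 minus that of WT was 2.08 in mice labelled STAT4 knockout (SE 0.56, adjusted p = 0.947, 0% of features called). It was 1.58 in HDC knockout mice (SE 0.56, adjusted p = 0.344, 0.00695% called) and -0.39 in STAT6 knockout mice (SE 0.56, adjusted p = 0.977, 0% called). The mean diet change of the mice labelled STAT4 knockout and HDC knockout minus that of WT and STAT6 knockout mice, a grouping also chosen after seeing the values, was 2.03 (SE 0.40, adjusted p = 0.124, 0.00695% called).

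**Figure D5:**
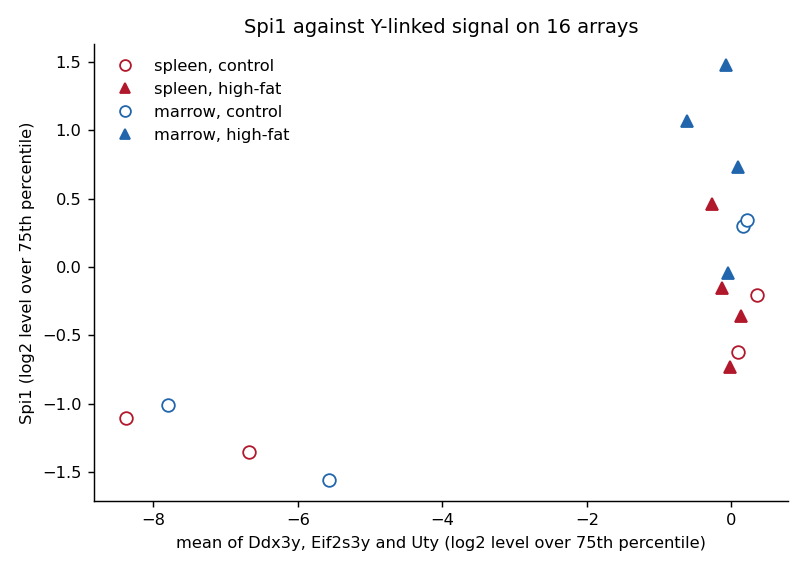
Spi1 (vertical axis) against the mean of Ddx3y, Eif2s3y and Uty (horizontal axis), both as log2 levels over the 75th percentile, on the 16 arrays (red, spleen; blue, marrow; open circles, control diet; filled triangles, high-fat diet). The 4 arrays at -8.39 to -5.57 on the horizontal axis hold the 4 lowest Spi1 values, all at or below -1.01.

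For genotype, no member was called in any comparison. Features called were 0.0174% for the mice labelled STAT4 knockout against WT, 0.0313% for STAT6 knockout, 0.153% for HDC knockout and 0.0104% for HDC against STAT6 knockout. In the label STAT4 knockout the nearest to the threshold was Irf5, lower than in WT in 4 of 4 pairs, by 1.21 and 2.24 in spleen and by 0.13 and 0.50 in marrow on the control and the high-fat diet. Its mean difference was -1.02 (SE 0.44, unadjusted p = 0.0445, adjusted p = 0.494). Runx1 was lower in the same 4 pairs, by 0.32 to 0.78 (mean -0.56, SE 0.36, adjusted p = 0.607), and Gfi1 higher in all 4, by 0.13 to 1.59 (mean 0.63, SE 0.39, adjusted p = 0.596). The other members had signs that varied between the pairs. Cebpe differed by 0.61, Cebpd by 0.07, Cebpb by -0.05, Cebpa by -0.33 and Spi1 by -0.46, with adjusted p of 0.726 or more. Irf8 differed by -0.64 (adjusted p = 0.597).

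In HDC knockout mice Runx1 was 2.22 log2 units below WT on the control diet in marrow and 1.06 below in spleen, while on the high-fat diet it was 0.20 below in marrow and 0.04 above in spleen. The mean difference was -0.86 (SE 0.36, unadjusted p = 0.0378, adjusted p = 0.422). The control-diet HDC knockout arrays of both tissues lacked Y-linked signal, and the marrow array lay nearer to the other tissue. The dimmer Runx1 probe differed by 0.06 (SE 0.30), so the probes did not show the same difference. Cebpb was lower than in WT in 4 of 4 pairs, by 0.31 to 1.13 (mean -0.56, SE 0.29, adjusted p = 0.517). So was Cebpd (mean -0.28, SE 0.31, adjusted p = 0.787). Irf8 differed by 0.28, Irf5 by 0.23, Cebpa by 0.04, Cebpe by -0.0044, Gfi1 by -0.25 and Spi1 by -0.31. These had pairs of either sign and adjusted p of 0.843 or more. In STAT6 knockout mice the differences from WT were 0.53 for Cebpe, 0.02 for Gfi1, -0.08 for Cebpb, -0.11 for Runx1, -0.18 for Cebpd, -0.27 for Cebpa, -0.38 for Spi1, -0.40 for Irf8 and -0.44 for Irf5, all with adjusted p of 0.963 or more. Irf8 differed from WT by -0.40 (SE 0.40, 95% interval -1.28 to 0.49) in STAT6 knockout mice. In those labelled STAT4 knockout it differed by -0.64 (SE 0.40, 95% interval -1.52 to 0.24). These intervals include no change as well as a change of 2-fold downward. HDC against STAT6 knockout, within slides, gave no member an adjusted p under 0.805, the lowest being Runx1 (-0.75, SE 0.36) at its brighter probe. The dimmer Runx1 probe went the other way there, by 0.73 (SE 0.30). In STAT6 knockout against WT it differed by -0.67 (SE 0.30), so these probes did not show the same difference. The other members were Irf8 at 0.68, Irf5 at 0.67, Cebpa at 0.31, Spi1 at 0.06, Cebpd at -0.10, Gfi1 at -0.28, Cebpb at -0.48 and Cebpe at -0.54.

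The knockout differences were also compared between the tissues. For the label STAT4 knockout 0% of features were called, for STAT6 knockout 7.43% and for HDC knockout 16.4%, with no member among them. Of the called features, 2133 of 2139 and 4714 of 4721 were positive, the median feature being shifted by 0.43 and 0.58, and under quantile normalization 0 were called in either (2455 and 3252 at an unadjusted p under 0.05). The largest member difference was that of Irf8 under the label STAT4 knockout (-2.08, SE 0.79, unadjusted p = 0.0253, adjusted p = 0.224). It was 0.75 and 2.62 below WT in spleen and 0.44 and 0.36 above WT in marrow, on the control and the high-fat diet. In the pathway lists, the only calls outside the tissue comparison were Il23a (-3.26, SE 0.50) and Ccl4 (-2.57, SE 0.38), both genes that IRF5 activates and both lower in HDC knockout than in WT mice (adjusted p = 0.0432 each). Irf5 itself differed by 0.23 (SE 0.44) in that comparison, and HDC knockout and WT arrays lie on different slides. On the control diet these arrays also differ in Y-linked signal.

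The genes most like each member were found by correlation over the 16 arrays after each tissue's mean was subtracted, among 12808 named genes above background on every array. Irf8 had the closest companions, Ddx51 (r = 0.984), Il2rb, a subunit of the interleukin-2 receptor (0.983), and the chemokine receptor gene Ccr6 (0.978). Irf5 was nearest to Pld4 (0.957), Itm2c (0.948) and Ms4a6b (0.935). On the neutrophil side, Cebpe was nearest to 1700020L24Rik (0.977), to Lta4h, which encodes an enzyme of leukotriene synthesis (0.970), and to S100a16 (0.968). Gfi1 was nearest to Ifnlr1 (0.930), H3c13 (0.928) and Rsph1 (0.920), though within marrow alone the first of these had r = 0.542. Cebpb was nearest to Mcl1, which protects neutrophils from apoptosis (0.946), and Cebpd to Pbx2 (0.950). For the early factors, Spi1 was nearest to Trabd (0.973), Rnasek (0.971) and Mark2 (0.970), Runx1 to Unc45a (0.943), and Cebpa to Slc26a2 (0.883), the weakest best match of the 9. These values describe arrays that share slides and cell make-up, and carry no test.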

How the data were processed

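Total RNA of CD11b+ cells was measured on 16 one-colour Cy3 arrays of 44397 spots. The deposited values are intensity values: per the file headers, the authors' files were written by version 11.0.1.1 of Agilent Feature Extraction, which subtracts background and corrects spatial trends within an array and scales nothing between arrays. Groups come from the labels. Spots marked as outliers were dropped, spots of a probe averaged, and 305 probes with no usable spot on some array left out. Of 39429 probes 27234 (69.1%) were named through RefSeq accessions in a table of build GRCm38.p6. The probe design used mm9, so no probe coordinates are given.

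Signals were log2 transformed and each array's 75th percentile subtracted. The brightest probe stood for a gene, and features not well above background on 2 or more arrays were left out, leaving 28783 features, 18665 with a symbol. limma 3.58.1 (R 4.3.3) fitted 8 genotype and tissue means and 1 diet term per tissue, with 6 residual degrees of freedom, and two-sided p-values were adjusted over every feature by Benjamini and Hochberg's method. No combination has a second array, so their number limits precision. The p-values of this fit measure only how the diet difference varies among genotypes within a tissue. Targeted genes and relations between members were tested by exact two-sided permutation (scipy 1.17.1). The fit was tested on simulated data with known changes. All 9 members are named for tissue, for diet over both tissues and for each genotype, and by those that stand out in the diet terms of single tissues and the differences between tissues, and from each gene list up to 4 called genes with the largest change. The members and lists were chosen with earlier results of these data known. Alternatives of scaling, background, filter, probe choice, prior, model, slide and arrays left out were computed. The normexp alternative used median signals of spot and background, the mean spot signal not being used here. Promoter windows are from RefSeq. Figures were drawn with matplotlib 3.10.9.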

Additional observations from a re-analysis of the deposited data

Results flagged for a closer look

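Of 18 tests for 1 array standing apart from the other 7 of its tissue (9 genes in 2 tissues, Dixon's test), 2 were positive. Chance marks about 1 such group in 20. Cebpd was 6.26 on the high-fat spleen array labelled STAT4 knockout, against 4.48 to 5.02 on the other 7 spleen arrays. Irf8 was 1.73 on the same array, against 3.78 to 4.62 on the other 7. On this array the mean log2 level of the mature B cell markers was -0.72 and that of the primary granule genes 5.12, the lowest and the highest of the spleen arrays. Its Y-linked level was -0.26, within the range of the other arrays that carry Y-linked signal. The part of other cells in these values was not tested.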

How the results depend on the processing

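The count of 5 members called between spleen and marrow was 4 to 6 when 1 array was left out at a time and 5 to 6 under the other scalings, background, filters, probe choice, prior, models and slide block. A paired fit, with arrays of the same genotype and diet as a block (7 residual degrees of freedom), called 7, adding Spi1 and Runx1. The count was 1 without the 4 arrays lacking Y-linked signal, a fit with fewer samples, in which 3815 features were called in place of 9201. Over 29 alternatives Irf8 was called in 29, Irf5, Cebpe and Gfi1 in 28, Cebpd in 17, Runx1 in 3, Cebpb and Spi1 in 1 and Cebpa in 0, with no change of sign in any of the 9. Cebpb was called without the 2 arrays nearer to the other tissue, a choice that enlarges the difference. Runx1 was also called with normexp background (-0.61, adjusted p = 0.0430) and without the control-diet HDC knockout marrow array (-0.76, adjusted p = 0.0352). The cause of these changes was not tested. The normexp background moved the median feature from -0.06 to -0.46 and the split of calls from 4278 higher and 4923 lower to 2782 and 12897. Irf8 then differed by 1.80, Irf5 by 1.09, Cebpe by -1.76, Gfi1 by -1.14 and Cebpd by -0.66. Counts of features called in leave-one-out fits ran from 5761 to 10717. No member was called for diet or genotype under any alternative computed. A slide block left the result as it was, since the slide correlation came to 0 in the model used and 0.00187 in the additive model. In the model used, the genotype and tissue means already take up every difference between slides. Tissue and genotype terms take up part of them in the additive model. The block therefore cannot show whether slide had an effect. For diet, the model's genotype and tissue means already pair the arrays. All 10 member probes were well above background on every array.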
